A study of Mus musculus with 8 samples.

Results

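The nuclear genes of the mitochondrial respiratory chain were followed in mouse bone marrow-derived dendritic cells (BMDCs) treated with [BF/S+L/Ep] or with its vehicle. A gene was taken when its single annotated symbol began with Nduf and a subunit letter and number, was Sdha, Sdhb, Sdhc or Sdhd, or began with Uqcr, Atp5 or a Cox number from 4 to 8 with a letter. This gave 79 of the 18193 genes with a probe set of 1 symbol: 35 of complex I, 4 of complex II, 8 of complex III, 15 of complex IV and 17 of complex V. The genes have 162 such probe sets on the array, and each gene is given by the probe set with the highest mean log2 signal unless stated. A further 9 probe sets name a member together with another gene and were left out, as were Cox4i1, Cox4i2 and Cyc1, whose symbols fall outside the rule and which are given separately.

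Cells came from the bone marrow of 6-week-old female BALB/c mice and were grown for 9 days with GM-CSF, given as 200 U/mL in the labels. [BF/S+L/Ep] is a butanol fraction of a stem and leaf extract of Echinacea purpurea, applied at 75 µg/mL in 0.1% DMSO, and the controls received 0.1% DMSO alone. The 4 groups were [BF/S+L/Ep] for 12 h, DMSO for 12 h, [BF/S+L/Ep] for 4 h and DMSO for 4 h, with 2 arrays each. The study calls the arrays of a group biological replicates from cell culture. The labels do not say whether the cultures shared animals or a day. The p-values rest on the spread between the 2 arrays of a group, pooled over the 4 groups and moderated by that of other probe sets. They cannot be taken to cover the spread between animals or days. The measured quantity is the MAS5 signal, a linear intensity scaled by the authors so that the trimmed mean of each array is 500.

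In background terms, complexes I to IV lie in the inner mitochondrial membrane and pass electrons from NADH and succinate to oxygen. Complex V, the ATP synthase, uses the resulting proton gradient to make ATP. Complex I (NADH dehydrogenase) and complex II (succinate dehydrogenase) feed ubiquinone, complex III passes electrons to cytochrome c, and complex IV (cytochrome c oxidase) passes them to oxygen. In dendritic cells, oxidative phosphorylation is known as the main energy route of the resting cell, with a turn to glycolysis on activation by microbial ligands. Most subunits are encoded in the nucleus, and their promoters are known for binding NRF1, ETS factors such as GABP, and YY1.

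The array was in range for nearly all of the genes. Signal was judged against a background reference, taken on each array as the 95th percentile of 86 probe sets for odorant, vomeronasal and taste receptors, which dendritic cells are not known to use. It lay between 66.5 and 107 signal units. Of the 79 genes, 76 exceeded it on at least 4 of the 8 arrays and 74 on all 8. Cox7b2 and Cox8b, a testis and a muscle isoform of complex IV subunits, were above it on no array, and Ndufb4 was above it on 2. Dendritic cell markers were present (10 of 10 above the reference on at least 4 arrays, 9 of 10 on all 8), with Flt3 near it at a mean signal of 92.8. Macrophage markers were present as well (7 of 7 on all 8 arrays), so the markers do not set dendritic cells apart from macrophages. Markers of erythroid (0 of 3), B (0 of 4), T and NK cells (0 of 5) and brown fat (0 of 3) were not above it on at least 4 arrays. Of the neutrophil markers 3 of 7 were above it on all 8 arrays (S100a8 at a mean signal of 2376), as was 1 of 5 mast cell and basophil markers (Kit, also known from progenitors). Of the stromal and of the skeletal muscle markers, 2 of 5 each were above it on at least 4 arrays and 0 on all 8. The 3'/5' signal ratios of the actin control probe sets ranged from 1.18 to 1.26 over the 8 arrays, and those of Gapdh, which differed by time and are given beside that result, from 0.652 to 0.756.

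The promoters of 5 genes whose transcripts fell with time are shown first, since the selection of the members did not use them. They were taken from RefSeq on build GRCm38.p6, from 250 bases before to 50 bases after the annotated start, and all lie on the minus strand. Capitals mark 3 words searched on both strands: GCGCATGCG (NRF1), CCGGAAG (ETS family, including GABP) and AAGATGGCG (YY1). Uqcr11, a small subunit of complex III (chr10:80406772-80407071), and Cox6a1, a subunit of complex IV (chr5:115348909-115349208), each carry an NRF1 word and an ETS word, and in Cox6a1 the NRF1 word overlaps its own reverse. Atp5j, the coupling factor of the ATP synthase stalk (chr16:84834927-84835226), carries a YY1 word and an ETS word. Ndufc1, a subunit of complex I (chr3:51408906-51409205), carries a YY1 word just after the start. Atp5g1, a gene for the c subunit of the ATP synthase ring (chr11:96075582-96075881), carries none of the 3 and is shown for contrast. The 5 were picked by hand and are richer in these words than the members at large, of which 25 of 66 (37.9%) hold any.
Uqcr11: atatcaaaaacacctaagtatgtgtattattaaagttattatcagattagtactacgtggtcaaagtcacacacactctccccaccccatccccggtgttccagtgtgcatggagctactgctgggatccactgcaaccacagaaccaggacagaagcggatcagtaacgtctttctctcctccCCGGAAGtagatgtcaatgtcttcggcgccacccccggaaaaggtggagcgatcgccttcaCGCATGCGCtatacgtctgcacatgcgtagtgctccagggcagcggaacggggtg
Cox6a1: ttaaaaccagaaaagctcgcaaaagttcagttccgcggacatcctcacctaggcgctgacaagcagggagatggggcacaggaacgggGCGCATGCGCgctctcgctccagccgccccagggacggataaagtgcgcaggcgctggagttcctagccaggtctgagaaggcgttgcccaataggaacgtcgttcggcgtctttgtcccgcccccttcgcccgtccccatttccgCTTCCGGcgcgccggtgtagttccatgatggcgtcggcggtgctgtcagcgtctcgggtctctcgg
Atp5j: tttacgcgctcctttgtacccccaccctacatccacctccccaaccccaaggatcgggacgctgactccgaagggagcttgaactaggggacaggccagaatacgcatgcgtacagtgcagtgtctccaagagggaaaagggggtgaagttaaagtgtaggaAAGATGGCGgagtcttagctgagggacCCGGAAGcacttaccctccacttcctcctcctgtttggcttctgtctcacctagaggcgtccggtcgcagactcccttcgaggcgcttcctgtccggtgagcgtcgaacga
Ndufc1: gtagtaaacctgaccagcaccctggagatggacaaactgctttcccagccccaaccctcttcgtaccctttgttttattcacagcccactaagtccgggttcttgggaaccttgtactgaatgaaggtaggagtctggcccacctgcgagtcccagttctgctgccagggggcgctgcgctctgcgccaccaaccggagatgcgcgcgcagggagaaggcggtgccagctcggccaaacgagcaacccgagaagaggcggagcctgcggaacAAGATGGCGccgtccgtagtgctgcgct
Atp5g1: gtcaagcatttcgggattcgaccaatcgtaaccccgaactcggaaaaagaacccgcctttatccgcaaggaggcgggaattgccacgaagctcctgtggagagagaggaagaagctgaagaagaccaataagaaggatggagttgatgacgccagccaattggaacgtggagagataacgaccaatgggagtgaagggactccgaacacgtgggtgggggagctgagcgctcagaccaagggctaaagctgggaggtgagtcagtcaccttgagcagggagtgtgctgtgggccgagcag

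A promoter was matched by Entrez ID for 66 of the 79 members. The NRF1 word stood in 7 of them (10.6%), against 4.32% of the 8871 genes with a probe set above the reference and 1.95% of all 27025 genes in the promoter table. The ETS word stood in 17 members (25.8%), against 21.0% of genes above the reference and 9.93% of all genes. The YY1 word stood in 6 members (9.09%), against 3.77% and 1.64%. The NRF1 word was found in Atp5g2, Atp5k, Atp5l, Cox6a1, Ndufa8, Uqcr11 and Uqcrc1, and the YY1 word in Atp5j, Atp5j2, Ndufa9, Ndufc1, Ndufs4 and Ndufs7. A match is a description of these letters and not a binding site, and no test was made.

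**Figure D1:**
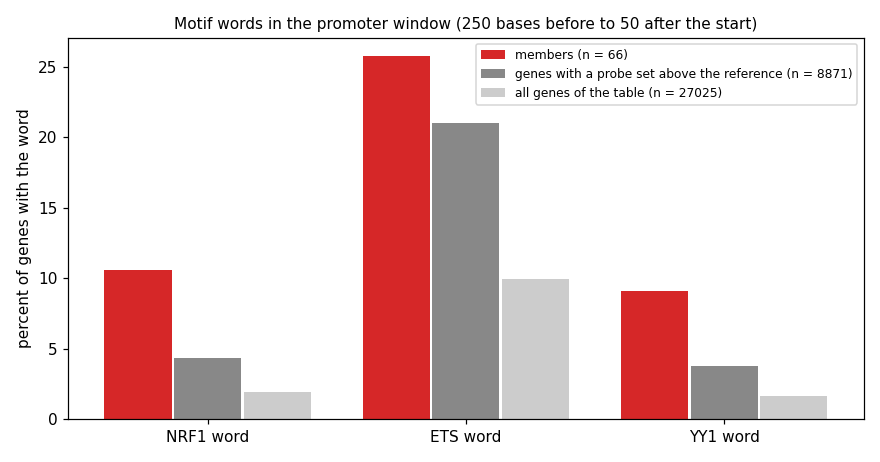
Percent of genes (y axis) whose promoter window holds the NRF1, ETS or YY1 word (x axis), for members, for genes with a probe set above the reference and for all genes of the promoter table. The members' bar is the highest of the 3 for each word, and the gap to genes above the reference is narrowest for the ETS word (25.8% against 21.0%).

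Transcripts of the respiratory chain were lower at 12 h than at 4 h in both treatments. The median log2 difference of the 76 genes above the reference, 12 h minus 4 h, was -0.35 in [BF/S+L/Ep] and -0.27 in DMSO, and -0.36 and -0.28 over all 79. The same median over all 23406 probe sets above the reference was 0.022 in [BF/S+L/Ep] and 0.021 in DMSO. In each treatment 73 of the 76 genes had a lower mean log2 signal at 12 h, where 47.5% of all probe sets above the reference did. Both 12 h arrays were below both 4 h arrays for 67 of 79 genes in [BF/S+L/Ep], where 20.1% of all probe sets did the same, and for 69 of 79 in DMSO, where 19.1% did. In bulk RNA, fewer cells of a type and less RNA per cell cannot be told apart.

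By the limma fit over all 45037 probe sets, 19 members were called lower in [BF/S+L/Ep] at an adjusted p under 0.05, and 1.31% of all probe sets were called lower there. In DMSO 1 member was called lower (Atp5g1), and 0.921% of all probe sets were. No member was called higher in either treatment. The unadjusted p was under 0.05 for 61 members in [BF/S+L/Ep] (77.2%), where it was for 13.8% of all probe sets, and for 40 in DMSO (50.6%), where it was for 12.4%. The counts of 19 and 1 do not show that the change with time differed between the treatments: the difference itself was called for 0 members by limma (0% of all probe sets), with 2 members at an unadjusted p under 0.05, where 3.66% of all probe sets had one. Of the 2, Cox7b2 was below the reference on every array and the other was Ndufs8. The count in [BF/S+L/Ep] was 2 or 1 when replicate 1 or replicate 2 of [BF/S+L/Ep] at 12 h was left out, 12 when either DMSO array at 12 h was, 11 when either DMSO array at 4 h was, and 1 or 29 when replicate 1 or replicate 2 of [BF/S+L/Ep] at 4 h was. In DMSO the count was 7 without either [BF/S+L/Ep] 4 h array, 0 without any 1 of the 4 DMSO arrays and 1 otherwise.

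A contrast of 12 h against 4 h averaged over both treatments, added after the data had been seen, sets 4 arrays against 4. It called 40 of 79 members lower and 0 higher, where 3.18% of all probe sets were called lower, and the median over the 76 genes was -0.31. Every 12 h array was below every 4 h array for 43 of 79 members, and 5.57% of all probe sets did the same. By complex, the contrast called 18 of 35 genes of complex I, 2 of 4 of complex II, 4 of 8 of complex III, 6 of 15 of complex IV and 10 of 17 of complex V. The medians of the genes above the reference were -0.31, -0.25, -0.31, -0.34 and -0.31 for complexes I to V, and differences between complexes were not tested. The count was 23 without DMSO 12 h replicate 1, 24 without DMSO 4 h replicate 1, 16 without DMSO 4 h replicate 2, and 21 or 25 when replicate 1 or 2 of [BF/S+L/Ep] at 12 h was left out. It was between 28 and 52 without any 1 of the other arrays. With 1 variance prior for all intensities in place of a trend with signal, 0 members and 158 of all probe sets were called, with 34 members at an unadjusted p under 0.05.

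**Figure D2:**
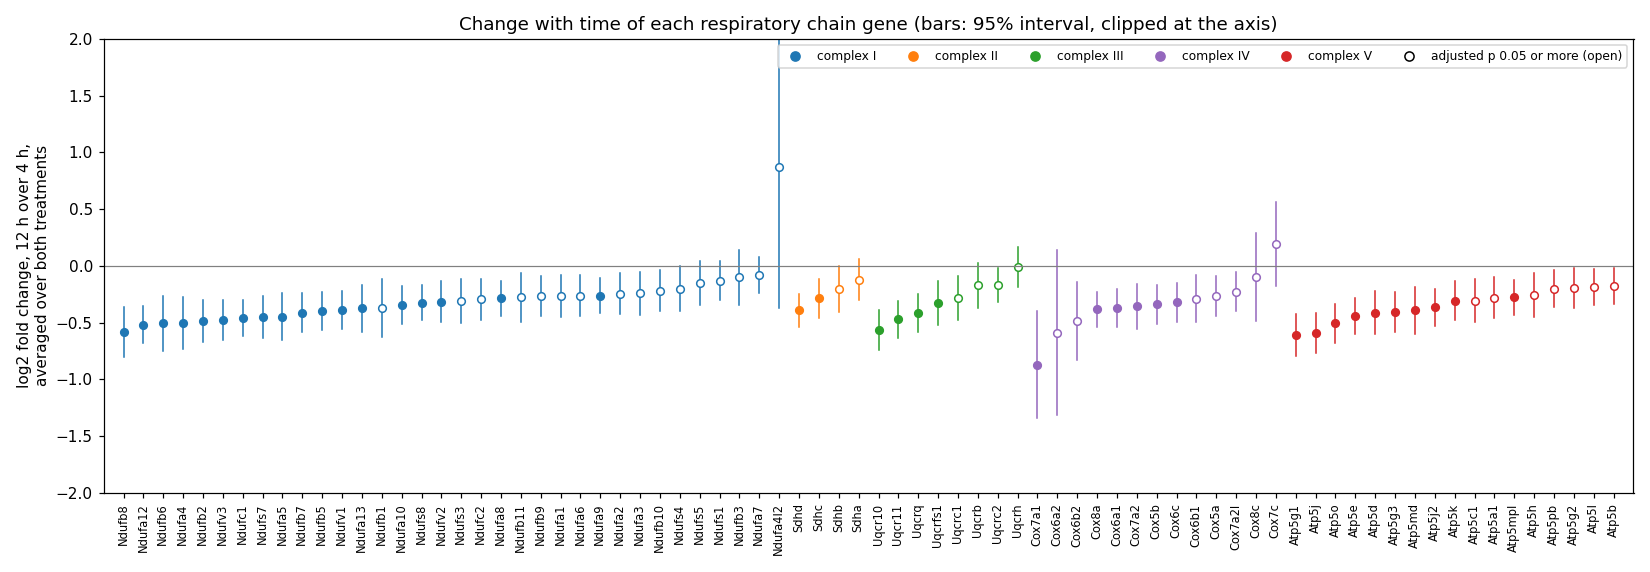
Log2 fold change of 12 h over 4 h, averaged over both treatments (y axis), of each of the 76 genes above the reference (x axis, by complex), with its 95% interval. Filled points are the 40 genes with an adjusted p under 0.05, all below 0, and the 2 genes above 0, Ndufa4l2 and Cox7c, are open.

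In complex V, the averaged contrast called 2 of the 3 genes for the membrane ring, 2 of 4 for the stalk, 2 of 5 for the catalytic F1 head and 4 of 5 for the other membrane subunits. Atp5g1, Atp5g2 and Atp5g3 encode the same mature c subunit of the ring. Atp5g1 had signals of 2892 and 2890.3 at 12 h of [BF/S+L/Ep], 2886 and 3201 at 12 h of DMSO, 5046 and 3999.7 at 4 h of [BF/S+L/Ep] and 4413 and 4695 at 4 h of DMSO. Its 12 h arrays lay below all 4 h arrays in both treatments, with log2 differences of -0.64 ± 0.12 (SE; adjusted p = 0.0117) in [BF/S+L/Ep] and -0.58 ± 0.12 (SE; adjusted p = 0.0235) in DMSO, and it was the one member called in both. Atp5g3 changed by -0.41 ± 0.082 (SE; adjusted p = 0.00852) on the averaged contrast. Atp5g2 had -0.20 ± 0.082 (adjusted p = 0.207) and did not pass.

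Atp5j, the coupling factor whose promoter is shown above, had signals of 6955 and 6109 at 12 h of [BF/S+L/Ep], 7456 and 8169.9 at 12 h of DMSO, 11716 and 9740.4 at 4 h of [BF/S+L/Ep] and 10894 and 10857 at 4 h of DMSO. The 12 h arrays were below the 4 h arrays throughout, and the difference was -0.71 ± 0.12 (SE; adjusted p = 0.00426) in [BF/S+L/Ep] and -0.48 ± 0.12 (SE; adjusted p = 0.0531) in DMSO. The stalk genes Atp5h and Atp5pb had -0.26 (adjusted p = 0.126) and -0.20 (adjusted p = 0.154) on the averaged contrast and were not called. Atp5o, the OSCP subunit that joins the stalk to the head, fell by 0.56 on the log2 scale in [BF/S+L/Ep] (adjusted p = 0.0168). Of the 5 subunits of the F1 head, Atp5d and Atp5e (delta and epsilon) were called lower on the averaged contrast, at -0.41 and -0.44. The catalytic and alpha subunits Atp5b and Atp5a1 stood at -0.18 (adjusted p = 0.208) and -0.28 (adjusted p = 0.0633). Among the membrane subunits outside the ring, Atp5j2, Atp5k, Atp5md and Atp5mpl were called, 4 of 5, with Atp5l at -0.19 not called.

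In complex I the genes called lower were spread over core and accessory subunits. On the averaged contrast 4 of the 6 core subunits measured were called (Ndufs7, Ndufs8, Ndufv1 and Ndufv2) and 14 of the 29 others. Ndufb8, an accessory subunit of the membrane arm, had signals of 5662 and 5187 at 12 h of [BF/S+L/Ep], 6234 and 6276 at 12 h of DMSO, 9322 and 7209 at 4 h of [BF/S+L/Ep] and 8072 and 10705 at 4 h of DMSO. The 12 h arrays of both treatments were below every 4 h array, and the averaged difference was -0.58 ± 0.10 (SE; adjusted p = 0.00325). Ndufa12, an accessory subunit of the matrix arm, had signals of 2973 and 2877 at 12 h of [BF/S+L/Ep], 3445 and 3454 at 12 h of DMSO, 4698 and 4235 at 4 h of [BF/S+L/Ep] and 4345 and 4987 at 4 h of DMSO. It fell by 0.61 on the log2 scale in [BF/S+L/Ep] (SE 0.11, adjusted p = 0.00717), with -0.43 (adjusted p = 0.0593) in DMSO.

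The 4 probe sets of Ndufa12 did not point the same way. The 3 with mean signals above 2000 gave averaged time differences between -0.57 and -0.52, all called lower. A dim one, with a mean signal of 199.7, gave 0.77 (adjusted p = 0.0373), the single member probe set called higher in any time contrast. Ndufa12 was the only gene whose probe sets disagreed in direction past an unadjusted p of 0.05. Over the 45 genes with 2 or more probe sets above the reference, all probe sets were lower at 12 h for 33, the signs were mixed for 11 and all were higher for 1. Counted singly, 73 of the 162 member probe sets were called lower on the averaged contrast and 1 higher.

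Complex II, which links the citric acid cycle to the chain, had its 4 genes measured well above the reference. The 2 membrane anchors were called lower on the averaged contrast, Sdhd at -0.39 ± 0.069 (SE; adjusted p = 0.00325) and Sdhc at -0.29 ± 0.079 (SE; adjusted p = 0.0486). Sdhd had signals of 4597 and 4282 at 12 h of [BF/S+L/Ep], 4460.5 and 4712 at 12 h of DMSO, 5829 and 6088 at 4 h of [BF/S+L/Ep] and 6023 and 5770.4 at 4 h of DMSO, with no overlap between 12 h and 4 h. The iron-sulfur subunit Sdhb stood at -0.20 (adjusted p = 0.263) and the flavoprotein Sdha at -0.12 (adjusted p = 0.505), with 95% intervals of -0.40 to -0.0052 and -0.30 to 0.056. Sdha had 4025 and 4794 at 12 h of [BF/S+L/Ep], 4037 and 4445 at 12 h of DMSO, 4756 and 4643 at 4 h of [BF/S+L/Ep] and 5039.7 and 4368 at 4 h of DMSO, and its groups overlapped.

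In complex III the small subunits Uqcr10, Uqcr11 and Uqcrq and the Rieske iron-sulfur protein Uqcrfs1 were called lower on the averaged contrast. Uqcr10 had signals of 4408 and 3754 at 12 h of [BF/S+L/Ep], 4484 and 4827 at 12 h of DMSO, 6942 and 6270.5 at 4 h of [BF/S+L/Ep] and 5850.5 and 6730.3 at 4 h of DMSO. Its 12 h arrays lay below every 4 h array, and the difference was -0.70 ± 0.12 (SE; adjusted p = 0.00522) in [BF/S+L/Ep] and -0.43 ± 0.12 (SE; adjusted p = 0.0872) in DMSO. The 2 core proteins, Uqcrc1 and Uqcrc2, were not called, at -0.28 and -0.17. Uqcrh, the hinge subunit that helps cytochrome c dock, had an averaged difference of -0.012 with a 95% interval of -0.19 to 0.16.

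In complex IV the ubiquitous isoforms Cox5b, Cox6a1, Cox6c, Cox7a2 and Cox8a were called lower on the averaged contrast, between -0.38 for Cox8a and -0.32 for Cox6c. Cox6a1, whose promoter is shown above, had signals of 20449 and 20474 at 12 h of [BF/S+L/Ep], 22687 and 22083 at 12 h of DMSO, 29601 and 25066 at 4 h of [BF/S+L/Ep] and 27934 and 28444 at 4 h of DMSO. All 12 h arrays were below all 4 h arrays, and the averaged difference was -0.37 ± 0.077 (SE; adjusted p = 0.01). The heart and muscle isoform Cox7a1 was close to the background reference, with 114 and 113 at 12 h of [BF/S+L/Ep], 152 and 115 at 12 h of DMSO, 214 and 219.9 at 4 h of [BF/S+L/Ep] and 227 and 236 at 4 h of DMSO. It had the largest fitted fall of any member above the reference, -0.87 ± 0.22 (SE; adjusted p = 0.0284) on the averaged contrast.

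The other tissue isoforms gave no call. Cox6a2, the heart and muscle isoform of Cox6a1, was above the reference on 7 arrays and had 90.7 and 143 at 12 h of [BF/S+L/Ep], 129.7 and 59.7 at 12 h of DMSO, 178 and 105 at 4 h of [BF/S+L/Ep] and 154 and 179 at 4 h of DMSO. Cox6b2, known as a testis isoform, was above it on all 8, with -0.48 (adjusted p = 0.101) on the averaged contrast, and its ubiquitous counterpart Cox6b1 had -0.29 (adjusted p = 0.099). Cox8c, also known from testis, stood at -0.10 with a 95% interval of -0.49 to 0.29. Ndufa4l2, a paralogue of Ndufa4 that is known to be induced by hypoxia, was above the reference on 6 arrays, at 94.2 and 107 at 12 h of [BF/S+L/Ep], 119.6 and 89.7 at 12 h of DMSO, 64 and 101 at 4 h of [BF/S+L/Ep] and 13.3 and 111 at 4 h of DMSO. Ndufa4, counted here with complex I by its symbol although its protein is now placed with complex IV, was called lower, at -0.50 ± 0.10 (SE; adjusted p = 0.0102). Cox7a2l, known for its part in joining complexes III and IV, had -0.23 (adjusted p = 0.117).

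**Figure D3:**
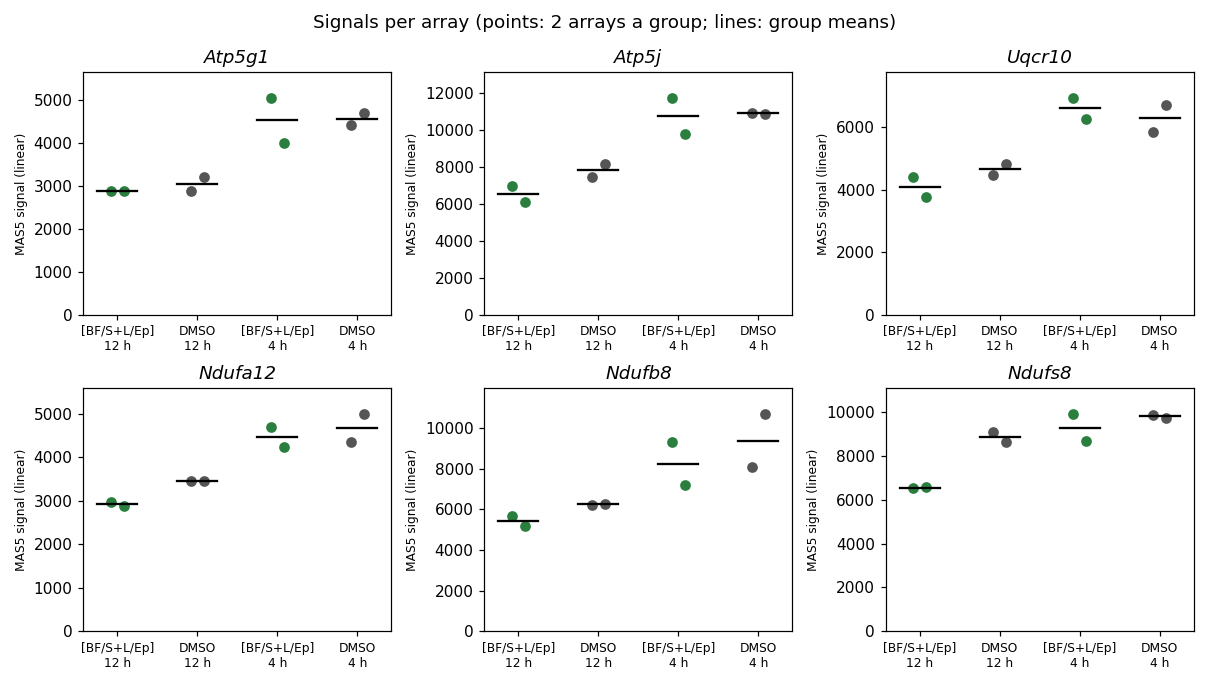
MAS5 signals (y axis, linear, from 0) of Atp5g1, Atp5j, Uqcr10, Ndufa12, Ndufb8 and Ndufs8 in the 4 groups (x axis), with a point per array and a line at the group mean. In the first 5 genes all 12 h points lie below all 4 h points, and in Ndufs8 the [BF/S+L/Ep] points at 12 h, 6527 and 6563, lie lowest.

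The [BF/S+L/Ep] arrays at 4 h differed from each other. Each gene's log2 signal was set against its own mean over the 8 arrays, and the median over the 76 genes was 0.27 on replicate 1 and 0.043 on replicate 2 of that group. It was -0.21 on both [BF/S+L/Ep] arrays at 12 h, -0.12 and -0.061 on the DMSO arrays at 12 h, and 0.14 and 0.21 on the DMSO arrays at 4 h. The DMSO replicates also differed in 1 direction. Of the 76 genes, 56 were lower on replicate 1 than on replicate 2 of DMSO at 12 h, and 52 were at 4 h. In [BF/S+L/Ep] at 12 h, 37 were lower on replicate 1 and 39 on replicate 2. In [BF/S+L/Ep] at 4 h, 61 were lower on replicate 2 than on replicate 1. By complex, these were 28 of 34 in complex I, 3 of 4 in complex II, 6 of 8 in complex III, 10 of 13 in complex IV and 14 of 17 in complex V, with a median difference within genes of -0.27, -0.026, -0.14, -0.24 and -0.23 (replicate 2 minus replicate 1). In complexes I, IV and V the medians were 0.27, 0.28 and 0.25 on replicate 1 and 0.022, -0.051 and 0.0498 on replicate 2. In complex III the medians were 0.18 and 0.19.

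**Figure D4:**
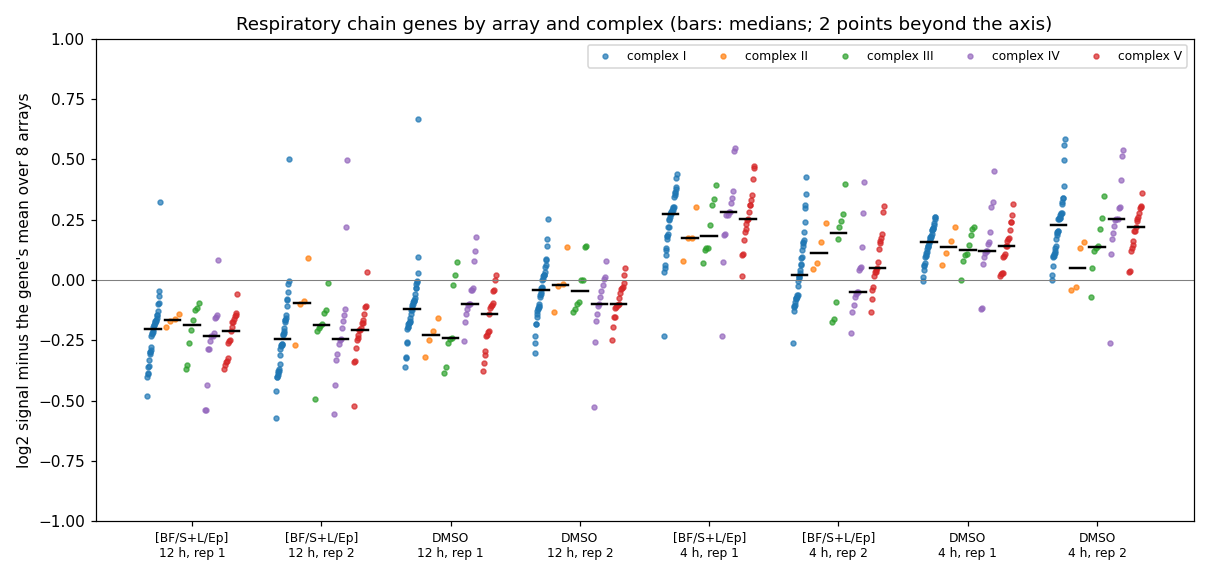
Log2 signal of each of the 76 genes minus its own mean over the 8 arrays (y axis) on each array (x axis), colored by complex, with bars at the medians. The medians of complexes I to V are below 0 on every 12 h array and above 0 on every 4 h array except in complex IV on replicate 2 of [BF/S+L/Ep] at 4 h (-0.051), and 2 points lie beyond the axis.

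Other values moved with time beside these genes. The summed signal of 7 macrophage markers was 58315 to 61382 at 12 h of [BF/S+L/Ep], 62201 to 62286 at 12 h of DMSO, 51795 to 55975 at 4 h of [BF/S+L/Ep] and 56481 to 58489.8 at 4 h of DMSO, all 7 being above the reference on all 8 arrays. Most of that sum is Csf1r, which had 0.0092 ± 0.077 (SE; adjusted p = 0.974) on the averaged contrast. The other 6 were all called: Adgre1 (F4/80) was higher at 12 h on the log2 scale by 1.21 ± 0.097 (SE; adjusted p = 6.05e-06), Mertk by 0.53 ± 0.10 (SE; adjusted p = 0.00676), and the complement genes C1qa, C1qb and C1qc by 0.45, 0.57 and 0.43, while Mrc1, the mannose receptor, had -0.50 ± 0.075 (SE; adjusted p = 0.00102). The summed signal of 10 dendritic cell markers was 203681 to 208385, 206692 to 217986, 216938 to 234581 and 218901 to 222130.4 in the same groups, and 2 of them were called, Zbtb46 at 0.74 ± 0.097 (SE; adjusted p = 3.92e-04) and Itgax at -0.36 ± 0.072 (SE; adjusted p = 0.0071). The 3'/5' ratio of Gapdh, a measure of RNA and labelling quality, was 0.652 to 0.685 on the 12 h arrays and 0.702 to 0.756 on the 4 h arrays, with no overlap, and that of actin was 1.18 to 1.24 and 1.21 to 1.26. The part of these values in the result was not tested. The array numbers in the sample descriptions also run with time and, within each time, with treatment, DMSO before [BF/S+L/Ep]. Array order can therefore not be told apart from time, nor from treatment at either time.

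Most members are bright, so they were also set beside other bright probe sets. Over the 3655 probe sets outside the members with a mean signal of 2000 or more, the averaged time contrast had a median of -0.055, with 472 called lower (12.9%) and 446 called higher (12.2%). Of the 67 members in that range, 38 were called lower and 0 higher. For 43 cytosolic ribosomal protein genes above the reference, which make up another large family of abundant transcripts, the median was -0.11 with 1 called lower. For 37 proteasome genes it was -0.16, with 9 called lower and 1 higher. Differences between these lists were not tested.

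Treatment with [BF/S+L/Ep] called no respiratory chain gene. At 12 h, 0 of 79 members passed an adjusted p of 0.05 in limma, where 0.02% of all probe sets did, and 6 had an unadjusted p under 0.05 (7.59%), where 5.96% of all probe sets did. At 4 h, 0 members passed, where 0.00444% of all probe sets did, and 1 had an unadjusted p under 0.05 (Cox7b2, below the reference), where 4.97% did. Averaged over both times, 0 members passed, where 0.107% did, and 6 had an unadjusted p under 0.05, where 7.08% did. These unadjusted counts rest on a spread pooled over all 4 groups, with the unlike [BF/S+L/Ep] arrays at 4 h among them. Fitted on its own 4 arrays, the 12 h contrast had 10 such members in limma. With median centring it had 1, and the averaged contrast 2. The averaged median of the 76 genes was -0.09, and -0.15 or -0.028 without replicate 1 or 2 of [BF/S+L/Ep] at 4 h. The 95% interval lay within a 1.5-fold change in either direction for 69 of the 76 genes above the reference at 12 h and for 71 at 4 h.

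The members leaned lower with [BF/S+L/Ep] at 12 h without any single call. The median log2 difference, [BF/S+L/Ep] minus DMSO, of the 76 genes was -0.14 at 12 h and -0.0301 at 4 h, and -0.13 and -0.028 over all 79. At 12 h 62 of 79 genes had a lower mean log2 signal in [BF/S+L/Ep], where 53.0% of all probe sets did. For 44 genes both [BF/S+L/Ep] arrays were below both DMSO arrays, where 19.7% of all probe sets did the same. The 43 ribosomal protein genes had a median of -0.15 at 12 h, with 38 of 43 lower and 29 of 43 not overlapping in that direction. The bright probe sets outside the members had -0.026, with 2063 of 3655 lower and 1047 not overlapping in that direction. A difference between the lists was not tested. With each array centred on its median signal, the members' median was -0.064 at 12 h and turned to 0.025 at 4 h, and the 4 h median was 0.085 with replicate 2 of [BF/S+L/Ep] at 4 h left out and 0.0063 with replicate 2 of DMSO at 4 h left out.

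By complex, the medians at 12 h were -0.17 for complex I, 0.0026 for complex II, -0.17 for complex III, -0.13 for complex IV and -0.10 for complex V. At 4 h they were -0.042, 0.029, 0.0103, -0.071 and -0.019 in the same order. Complex II stood nearest to 0 at 12 h, with its 4 genes between -0.092 (Sdhb) and 0.057 (Sdhc), and no difference between complexes was tested.

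**Figure D5:**
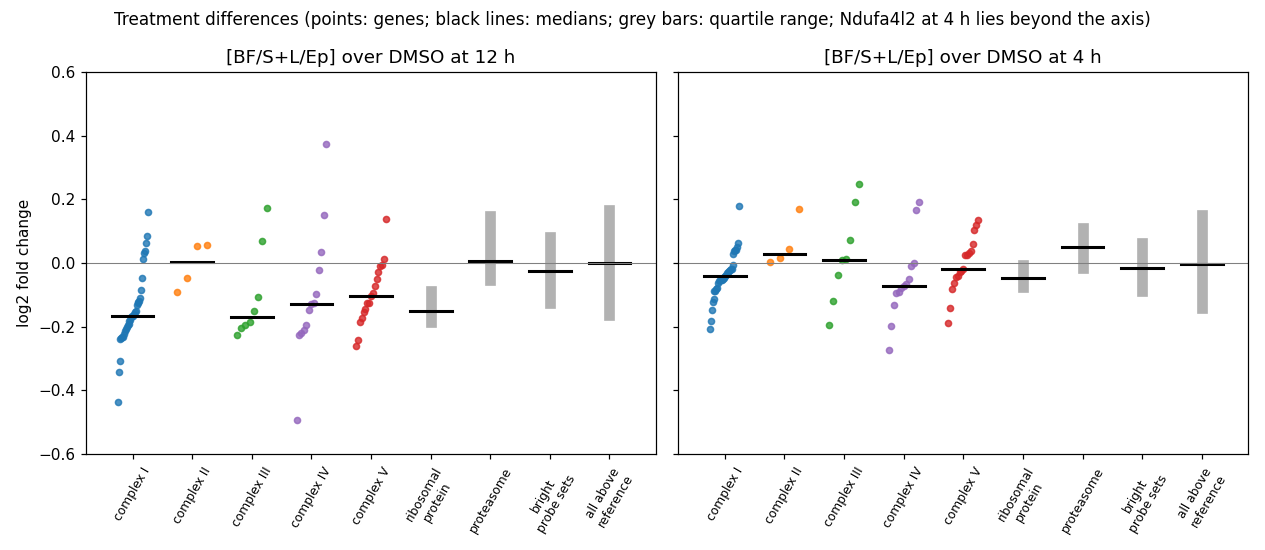
Log2 fold change of [BF/S+L/Ep] over DMSO (y axis) at 12 h and at 4 h, with a point per gene above the reference in each complex and a line at the median, and, for ribosomal protein genes, proteasome genes, bright probe sets and all probe sets above the reference, the median and the quartile range. The medians of complexes I, III, IV and V lie between -0.17 and -0.10 at 12 h, beside -0.15 for the ribosomal protein genes.

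Ndufs8, a core subunit of complex I that holds 2 iron-sulfur clusters, had the smallest p of any member at 12 h. Its signals were 6527 and 6563 in [BF/S+L/Ep] and 9094 and 8626 in DMSO at 12 h, and 9911 and 8690.1 in [BF/S+L/Ep] and 9854 and 9757 in DMSO at 4 h. The groups did not overlap at 12 h, and the log2 difference was -0.44 ± 0.10 (SE; limma, adjusted p = 0.339), against -0.079 ± 0.10 at 4 h. Its 5 other probe sets gave smaller differences at 12 h, from -0.22 to -0.042. The gene failed the adjustment.

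The largest differences of each complex at 12 h, none of which passed the adjustment, were as follows. In complex I, Ndufa10 was highest at 0.16 (95% interval -0.073 to 0.40) after Ndufs8 at the low end, and in complex II, Sdhc had 0.057 and Sdhb -0.092. In complex III, the core protein Uqcrc1 had 0.17 (-0.10 to 0.45) and the hinge protein Uqcrh -0.23 (-0.47 to 0.0201). In complex IV, Cox6a2 had 0.37 and Cox6b2 -0.49, both with wide intervals (-0.65 to 1.40 and -0.98 to -0.0045). In complex V, Atp5a1 had 0.14 (-0.12 to 0.39) and Atp5j -0.26 (-0.51 to -0.011). For Atp5a1 the probe sets differed: a dim one with a mean signal of 489 gave -0.71 (adjusted p = 0.514), and the remaining one gave 0.013.

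Treatment differences of the 76 genes above the reference lay between -0.49 and 0.37 at 12 h and between -0.27 and 1.07 at 4 h. The highest at 4 h was Ndufa4l2, near the background, with 64 and 101 in [BF/S+L/Ep] and 13.3 and 111 in DMSO and a 95% interval of -0.69 to 2.83. Ndufb6 was lowest in complex I among the genes that exceeded the reference, at -0.21, while Ndufb4, above the reference on 2 arrays, had 0.30. Sdhb had 0.17 and Sdha 0.0024 in complex II, and Uqcrc1 had 0.25 and Uqcrc2 -0.19 in complex III. Cox7c had 0.19 and Cox6a2 -0.27 in complex IV, and Atp5a1 had 0.13 and Atp5h -0.19 in complex V. Their adjusted p values in limma were all 0.997 or higher.

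Averaged over both times, the smallest p values after Ndufs8 were those of Ndufa6, Uqcrc2, Atp5h and Uqcrc1. Ndufa6 had -0.23 ± 0.083 (SE; limma, adjusted p = 0.598). The 2 core proteins of complex III pointed in opposite directions. Uqcrc1 had signals of 3479.5 and 3689 at 12 h of [BF/S+L/Ep], 2897 and 3491 at 12 h of DMSO, 4082 and 4903 at 4 h of [BF/S+L/Ep] and 4009 and 3540.4 at 4 h of DMSO, with an averaged difference of 0.21 (adjusted p = 0.677). Uqcrc2 had 5639.6 and 5540.4 at 12 h of [BF/S+L/Ep], 6407 and 6314 at 12 h of DMSO, 6630.5 and 5929 at 4 h of [BF/S+L/Ep] and 7365 and 6979 at 4 h of DMSO, with -0.19 (adjusted p = 0.603), but its second probe set gave 0.12.

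Ndufb2, an accessory subunit of the membrane arm of complex I, had signals of 2419 and 2557 in [BF/S+L/Ep] and 2349.6 and 2587 in DMSO at 12 h, and 3929 and 3139 in [BF/S+L/Ep] and 3384 and 3507 in DMSO at 4 h. The treatment groups overlapped at both times, with differences of 0.013 at 12 h (95% interval -0.25 to 0.27) and 0.028 at 4 h. Its change with time was -0.50 ± 0.12 (SE; adjusted p = 0.0446) in [BF/S+L/Ep] and -0.48 (adjusted p = 0.063) in DMSO.

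Genes of the pathway outside the selection moved partly with it. Of 9 further genes (subunits, electron carriers and the ATPase inhibitor Atpif1), 3 were called lower on the averaged time contrast and 0 higher. Of all probe sets 3.18% were called lower, and of those above the reference 5.98%. The 3 were Cyc1, the cytochrome c1 of complex III, at -0.45 (adjusted p = 9.69e-04), and Etfb and Etfa, the electron transfer flavoprotein that feeds ubiquinone, at -0.55 (adjusted p = 9.66e-04) and -0.37 (adjusted p = 0.0149). Cycs (cytochrome c) stood at -0.30 (adjusted p = 0.0616) and Cox4i1 at -0.18 (adjusted p = 0.255). Cox4i2 was above the reference on no array. ND5, encoded in the mitochondrial genome and measured by 1 probe set, had 0.11 ± 0.11 (SE; adjusted p = 0.698).

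Of 45 assembly factors measured, 6 were called lower and 0 higher on the averaged time contrast. Of all probe sets 3.18% were called lower there, and of those above the reference 5.98%. A difference from these shares was not tested. The median was -0.11 over the 43 above the reference. The 6 were Uqcc2, needed for complex III assembly, at -0.64 (adjusted p = 0.00631), Ndufaf6 and Tmem126b, needed for complex I, at -0.73 and -0.66, and Cox18, Cox19 and Coa6, needed for complex IV, at -0.44, -0.39 and -0.45. Of 12 regulators of these genes, 2 were called higher and 0 lower. Of all probe sets 3.65% were called higher, and of those above the reference 6.87%, so 2 genes do not set this list apart. Ppargc1b, a coactivator of mitochondrial biogenesis, stood at 0.57 (adjusted p = 0.00474) and Nrf1, the factor named by the promoter word, at 0.48 (adjusted p = 0.0393). Gabpa, Yy1, Esrra and Tfam had -0.0069, 0.0202, 0.071 and -0.042 and were not called, and Ppargc1a was above the reference on no array. No gene of these 4 lists was called in a treatment contrast at 12 h or 4 h.

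Of the 36 members with a promoter that were called lower on the averaged contrast, 16 held at least 1 of the 3 words, and of the 30 others, 9 did. At least 1 word stood in 27.01% of the 8871 genes with a probe set above the reference and in 12.72% of all 27025 genes. For the NRF1 word the counts were 4 of 36 and 3 of 30, for the ETS word 11 and 6, and for the YY1 word 5 and 1. Atp5g1, called in both treatments, held none of them. These counts were not tested.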

How the data were processed

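RNA of mouse BMDCs was measured on 8 Affymetrix Mouse Genome 430 2.0 arrays, 2 in each of 4 groups of treatment and time, with the groups taken from the labels. The intensity values are those the authors deposited: MAS5 signals on the linear scale, scaled by the authors to a trimmed mean of 500 with 2% taken off each end. The MAS5 version was not given in the sources used here, and the small number of arrays limits the precision.

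Of 45101 probe sets, 64 controls were left out, and genes were named for the 34945 probe sets with 1 symbol in the array's annotation. Each of the 76 member genes above the background reference is given by 1 probe set. Of these, 3 carry the suffix x and 12 the suffix s, which mark probes shared with other transcripts. Related genes or pseudogenes may therefore add to their signals. Log2 signals of all 8 arrays were fitted as 4 group means in limma 3.58.1 (R 4.3.3) and the variances were moderated with a trend on intensity (4 residual and 8.83 prior degrees of freedom). Tests were two-sided, adjusted by Benjamini-Hochberg over 45037 probe sets, and the script was tested on simulated data. Named genes were the members called in a contrast (the 6 largest falls where over 20 were), the largest differences of each complex, the smallest p values, complex II, tissue isoforms and Ndufb2. The members, lists and rules were chosen with earlier results of these data known. Alternatives were other scalings, offsets, filters, moderation, choice of probe sets, a replicate block and leaving out each array. Promoter sequences are RefSeq's on build GRCm38.p6.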

Additional observations from a re-analysis of the deposited data

How the results depend on the processing

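Treatment called 0 members under each alternative run, at 12 h, at 4 h, on average and for the difference. The counts called lower with time depended on the processing, given here for the averaged contrast, [BF/S+L/Ep] and DMSO, with 40, 19 and 1 reported. Counting every probe set gave 74, 35 and 7 (of the 74, 1 was higher). Median centring gave 26, 4 and 0. Moderation with no intensity trend gave 0 in each. The mean of a gene's probe sets gave 34, 12 and 4, and the 4 arrays of a contrast alone gave 3 in [BF/S+L/Ep] and 7 in DMSO. In DMSO the count was 9 with probe sets above the reference alone, 2 with quantile normalization and 2 with robust moderation. Leaving out 1 array gave 16 to 52, 1 to 29 and 0 to 7. With a replicate block the counts were 38, 17 and 1. Between groups, the differences of replicate 1 from replicate 2 correlated between -0.029 and 0.11. Such weak values cannot decide whether same-numbered arrays shared animals or a day.

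The members' median kept its sign in every time contrast and in the treatment contrast at 12 h under each alternative run. In [BF/S+L/Ep] with time it lay between -0.47 and -0.28 with 1 array left out. At 4 h of treatment it changed sign, between -0.14 and 0.085 with 1 array left out and 0.025 with median centring. Of 902 alternative values of single genes, 714 kept their direction and call, 179 lost the call and 9 changed sign, all 9 for treatment differences that had not passed the test: Cox7c and Atp5a1 with the mean of a gene's probe sets, and 4 genes with 1 array left out. Those 4 ranged, with 1 array left out, from -0.10 (without DMSO 4 h replicate 2) to 0.11 for Sdha at 4 h, from -0.65 to 0.10 (highest with replicate 2 of [BF/S+L/Ep] at 4 h left out) for Cox6a2 at 4 h, and at 12 h from -0.19 to 0.93 for Cox6a2, from -0.28 to 0.099 for Sdhb and from -0.0901 to 0.20 for Sdhc, by which of the DMSO arrays at 12 h was left out. With the mean of a gene's probe sets Cox7c at 4 h was -0.085 and Atp5a1 -0.034 at 4 h and -0.19 at 12 h. The causes were not tested.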
